A study of Mus musculus with 17 samples.

Results

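Rasd1 and the RGS genes Rgs2, Rgs3, Rgs10, Rgs12 and Rgs16 encode regulators of heterotrimeric G proteins, and their transcripts were followed here in mouse ovarian follicles exposed to a kinase inhibitor. The 6 genes were taken by symbol from a count table of 25198 genes. Rasd1 was picked because it was higher in the inhibitor libraries of these data, so its treatment values are given as a description with no test. Of the 6 genes, 4 (Rasd1, Rgs2, Rgs10 and Rgs12) passed the filter on low counts and were among the 9603 genes tested, while Rgs3 and Rgs16 did not pass.

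Per the labels, the follicles were antral follicles from CD1 mice 16 days old, grown for 8 days in eIVFG (encapsulated in vitro follicle growth, a gel culture system). The group called Tyrphostin held 6 libraries from follicles given 10 µM Tyrphostin-AG1478 in DMSO together with hCG for 4 h. The series title spells the compound Tyrphostin-AG4178. Tyrphostin AG1478 is an inhibitor of the epidermal growth factor receptor kinase, and hCG is a hormone that acts on the luteinizing hormone receptor and starts ovulation in culture. The group called Control held 11 libraries of the same culture. All samples carry 1 treatment text, which leaves unstated whether the Control group was given hCG or DMSO. Each library pooled 3 follicles. The labels name 2 batches: batch 1 held Control 1 to 6 and Tyrphostin 1 to 3, and batch 2 held Control 7 to 11 and Tyrphostin 4 to 6. Nothing in the labels says that the libraries came from separate animals or cultures, so the p-values measure only the spread between these libraries, which may be technical.

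A receptor coupled to a heterotrimeric G protein loads the alpha subunit with GTP, and alpha and the beta-gamma pair then act on enzymes and channels until the GTP is hydrolysed. RGS proteins speed that hydrolysis and so shorten the signal. Rasd1, also known as Dexras1 or AGS1, is a small GTPase of the Ras family that was identified as a glucocorticoid-induced gene and that can activate Gi proteins without a receptor. In the ovulating follicle the receptors for luteinizing hormone and FSH signal mainly through Gs and cyclic AMP, and the luteinizing hormone signal is relayed to granulosa and cumulus cells by EGF-like ligands.

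Library totals ran from 1820545 to 8291024 counts, and 12538 to 16383 genes were detected per library. Levels are given as CPM, the counts rescaled to a common library size with TMM factors. Overlap of library values between groups is described for single genes below, and how many of all genes tested separate in the same way was not counted. A floor of 3 counts corresponded to 0.336 CPM in the deepest library (Control 8) and to 1.64 CPM in the shallowest (Control 6). In the comparison of Tyrphostin with Control, 10.6% of the 9603 genes tested passed an adjusted p of 0.05 in edgeR (4.35% higher and 6.25% lower). Of the 8 granulosa markers in the table, 6 were tested and 4 were higher in Tyrphostin libraries. Their summed level was 62435.6 to 81227 CPM in Control and 52681.1 to 78134.8 CPM in Tyrphostin libraries, and Amh was at 0 in 12 of 17 libraries. Of the 4 cumulus and mural ovulatory markers, Lhcgr was higher and the other 3 (Ptx3, Has2 and Tnfaip6) were lower in Tyrphostin libraries, with sums of 3903.2 to 13641.8 and 1415.3 to 3495.2 CPM. None of the 8 oocyte markers (23.7 to 177.7 and 30.1 to 272.5 CPM), the 6 theca and stroma markers (229.8 to 1981.5 and 238.4 to 2752.7 CPM), the 2 tested of 6 leukocyte markers (18.7 to 462.2 and 19.1 to 855 CPM) or the 2 tested of 6 endothelial and pericyte markers (9.39 to 90 and 9.51 to 34.5 CPM) passed the edgeR test. The part of these marker shifts in the results was not tested. In follicles of mixed cells, fewer cells of a type and less RNA per cell cannot be told apart.

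Rasd1, the Ras-family activator of Gi, lies on chromosome 11 (GRCm38, positions 59963181 to 59964944, minus strand) and has 1 annotated transcript with 1611 exonic bases. In batch 1, the Control libraries held 4.31, 12.9, 8.67, 6.67, 9.03 and 6.57 CPM, and the Tyrphostin libraries held 151.5, 151.5 and 12.5 CPM. Tyrphostin 1 and 2 were far above every Control library of the batch, whereas Tyrphostin 3 fell just under Control 2. In batch 2, the Control libraries held 47.5, 39.7, 17.8, 22.2 and 30.5 CPM, and the Tyrphostin libraries held 292.1, 224.8 and 767.3 CPM. Here the groups did not overlap, and over both batches 5 of 6 Tyrphostin libraries were above every Control library. The fitted log2 difference was 3.72 with batch as a term, a 13.2-fold higher level, and it was 3.69 in batch 1 and 3.76 in batch 2. The batch values were close on the log2 scale, while the levels of both groups were higher in batch 2. Control and Tyrphostin libraries averaged 8.03 CPM ± 2.93 (SD, n = 6) and 105.2 CPM ± 80.3 (SD, n = 3) in batch 1. In batch 2 they averaged 31.5 CPM ± 12.2 (SD, n = 5) and 428.1 CPM ± 295.7 (SD, n = 3). A single library carried much of the spread in each batch. Without Tyrphostin 3 the batch 1 difference was 4.23, and without Tyrphostin 6 the batch 2 difference was 3.03. The Control counts behind these values were 12 to 354 per library and the Tyrphostin counts were 64 to 4114. Tyrphostin 6 also held the highest summed level of the oocyte markers (272.5 CPM), and its part in the Rasd1 value was not tested.

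**Figure D1:**
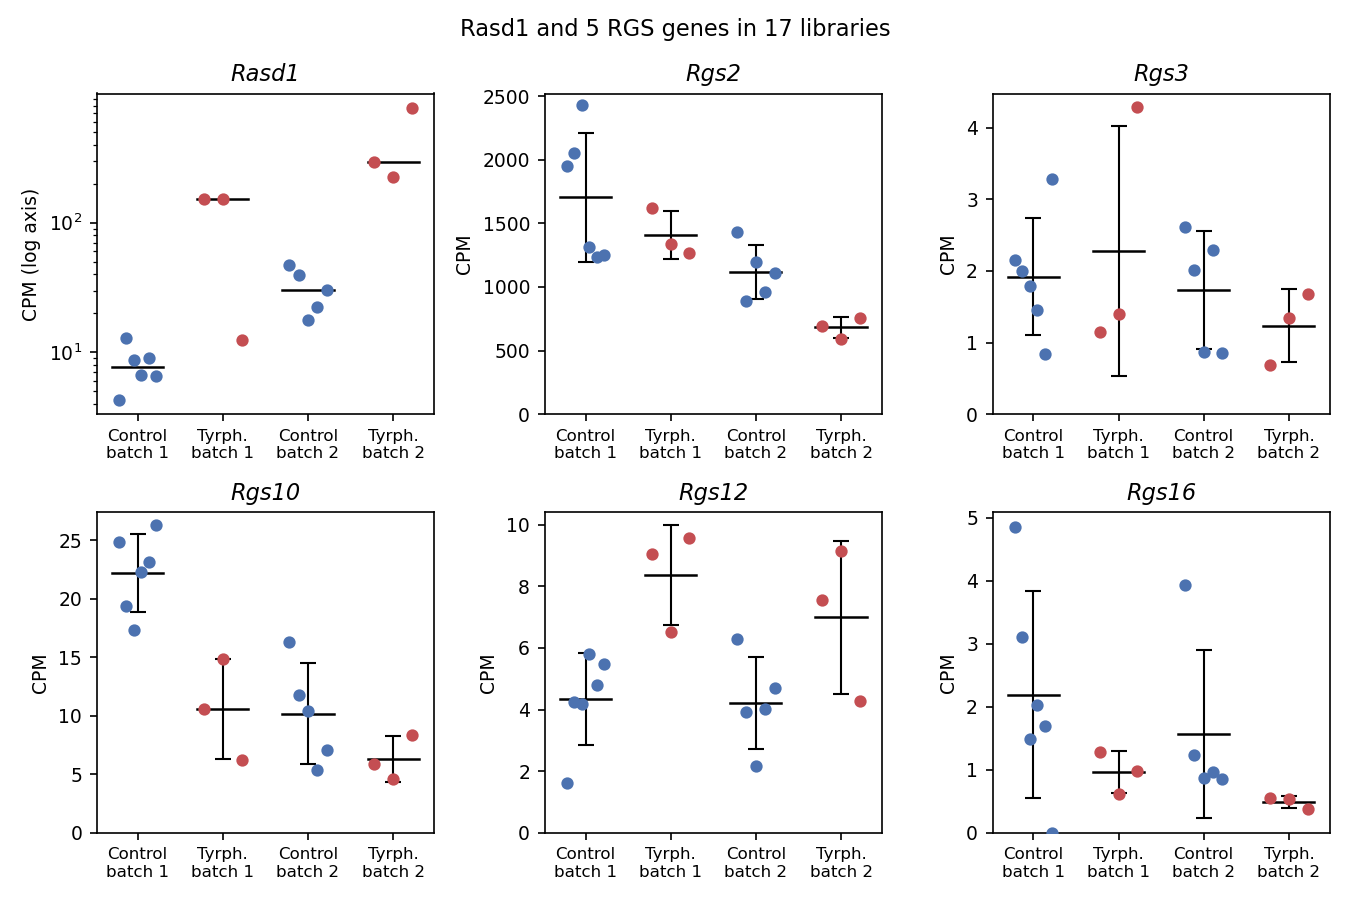
Level of Rasd1 and 5 RGS genes in CPM (y axis, a log axis for Rasd1 and linear from 0 for the others) by treatment and batch (x axis), with 1 point per library. Horizontal bars are medians for Rasd1 and means with SD bars for the others. All Tyrphostin libraries of batch 2 lie above the Control libraries for Rasd1 and below them for Rgs2, and Tyrphostin 3 is the low Rasd1 point at 12.5 CPM.

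The batch difference among Control libraries uses no Tyrphostin library, so here Rasd1 could be tested. In this comparison 14.0% of the 6680 genes tested passed an adjusted p of 0.05 (7.26% higher and 6.77% lower in batch 2). Of the 6 genes, 3 were tested: Rasd1 was higher in batch 2, Rgs10 was lower, and Rgs2 did not pass. Rasd1 was 3.95-fold higher in batch 2, a log2 difference of 1.98 ± 0.3 (SE, 95% interval 1.36 to 2.61; edgeR adjusted p = 0.000601), and 5 of 5 batch 2 Control libraries were above every batch 1 Control library. Leaving out each Control library in turn gave 1.82 to 2.18. The test took the 11 Control libraries as independent although their names group them in sets, and a fit with libraries summed by set was not run for this comparison. Within batch 2 the Control libraries come from 3 sets by their library names, and Rasd1 was 39.7 to 47.5 CPM in the first of them, 17.8 CPM in the second (1 library) and 22.2 to 30.5 CPM in the third. The theca and stroma markers reached higher sums in batch 2, at 229.8 to 671.5 CPM in batch 1 and 389.6 to 1981.5 CPM in batch 2 Control libraries. So did the leukocyte markers (18.7 to 61.7 and 54.2 to 462.2 CPM). Both pairs of ranges overlapped, unlike those of Rasd1, and the batch difference of these sums was not tested. The part of these markers in the Rasd1 difference was not tested.

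Among the RGS genes the comparison of Tyrphostin with Control gave calls in opposite directions. With batch as a term, 10.6% of the 9603 genes tested passed an adjusted p of 0.05 in edgeR's quasi-likelihood test (4.35% higher and 6.25% lower in Tyrphostin libraries). Of the 3 RGS genes tested, Rgs12 rose, Rgs10 fell and Rgs2 did not pass. Within batches the shares called were 6.73% in batch 1 (2.94% higher, 3.79% lower), where only Rgs10 of these 3 passed, and 0.621% in batch 2 (0.193% higher, 0.427% lower), where none of them did. The difference between the batches' effects was called for 0% of genes by edgeR with the count filter (342 genes at an unadjusted p under 0.05, 0 with DESeq2). It was -0.44 ± 0.37 for Rgs2, 0.39 ± 0.47 for Rgs10 and -0.26 ± 0.52 for Rgs12 (log2, SE), with an adjusted p of 1 for each.

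The bases before the annotated starts of Rgs2, Rgs10 and Rgs12 are shown because these are the RGS genes the comparison turns on, the most abundant one and the pair called in opposite directions. Each window holds the 250 bases before the start in RefSeq (GRCm38.p6), 5′ to 3′ on the strand of the gene. They were searched on both strands for the CRE (TGACGTCA), the short CRE (TGACG), an AP-1 site (TGANTCA), an EGR site (GCGNGGGCG), the GC box (GGGCGG) and the CCAAT box (CCAAT), and capitals mark every match, including matches read on the opposite strand. A full CRE contains the short CRE on both strands. Rgs12 has a pair of starts in RefSeq, both shown. RefSeq starts can differ from those of the GENCODE M21 annotation, from which the gene positions were taken. The Rgs10 window lies inside the GENCODE span of the gene, which reaches 128418758, and the second Rgs12 window lies inside that of Rgs12.
Rgs2, chr1:144004150-144004399, minus strand: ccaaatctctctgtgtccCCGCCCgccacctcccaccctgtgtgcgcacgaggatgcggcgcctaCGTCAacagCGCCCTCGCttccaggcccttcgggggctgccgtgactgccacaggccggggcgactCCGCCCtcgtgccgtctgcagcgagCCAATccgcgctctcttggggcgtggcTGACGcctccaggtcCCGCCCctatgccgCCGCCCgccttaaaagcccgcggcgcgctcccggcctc
Rgs10, chr7:128418173-128418422, minus strand: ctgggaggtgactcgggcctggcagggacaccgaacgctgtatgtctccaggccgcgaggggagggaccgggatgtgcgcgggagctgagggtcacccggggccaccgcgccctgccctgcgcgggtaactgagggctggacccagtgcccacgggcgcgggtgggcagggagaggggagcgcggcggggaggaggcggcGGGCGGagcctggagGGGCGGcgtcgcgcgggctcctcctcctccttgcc
Rgs12, first start, chr5:34949198-34949447, plus strand: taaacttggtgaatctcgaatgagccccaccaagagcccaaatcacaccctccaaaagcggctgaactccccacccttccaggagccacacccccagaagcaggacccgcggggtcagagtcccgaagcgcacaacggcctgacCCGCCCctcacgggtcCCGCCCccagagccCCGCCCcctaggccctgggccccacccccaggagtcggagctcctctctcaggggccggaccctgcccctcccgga
Rgs12, second start, chr5:34998828-34999077, plus strand: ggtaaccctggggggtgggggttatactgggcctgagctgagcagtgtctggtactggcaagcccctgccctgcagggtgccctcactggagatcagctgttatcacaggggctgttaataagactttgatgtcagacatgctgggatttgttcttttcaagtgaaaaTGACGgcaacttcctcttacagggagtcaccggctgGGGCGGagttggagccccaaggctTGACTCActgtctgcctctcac
The Rgs2 window held 2 short CREs, 1 EGR site, 4 GC boxes and 1 CCAAT box. The Rgs10 window held 2 GC boxes and no other motif searched. The first Rgs12 window held 3 GC boxes, and the second held 1 short CRE, 1 AP-1 site and 1 GC box. Among all 32851 RefSeq windows of this length, a GC box was present in 32.7%, a CCAAT box in 33.8%, a short CRE in 17.8%, an AP-1 site in 6.75%, an EGR site in 4.7% and the full CRE in 1.55%. These matches describe the letters of the windows and are not evidence of binding.

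Rgs2, an RGS protein known for its preference for Gq, is on chromosome 1 (positions 143999338 to 144004161, minus strand; its promoter window is printed above) and was the most abundant of the 6 genes. In batch 1, the Control libraries held 1951.1, 2055.7, 2428.4, 1315.5, 1238.5 and 1248.1 CPM and the Tyrphostin libraries 1623.7, 1339 and 1266.5 CPM. The Tyrphostin values lay inside the Control range. In batch 2, the Control libraries held 1430.8, 887.8, 1196.6, 962.4 and 1111.8 CPM and the Tyrphostin libraries 696.5, 591.6 and 760 CPM. All 3 Tyrphostin libraries of batch 2 were below every Control library of the batch. Over both batches Rgs2 had a Control mean of 1438.8 CPM ± 490.9 (SD, n = 11) and a Tyrphostin mean of 1046.2 CPM ± 419.2 (SD, n = 6). The log2 difference was -0.48 ± 0.19 (SE, 95% interval -0.87 to -0.1), with an edgeR adjusted p of 0.106. It was -0.27 ± 0.27 in batch 1 (edgeR adjusted p = 0.63) and -0.71 ± 0.25 in batch 2 (edgeR adjusted p = 0.304). DESeq2 gave an adjusted p of 0.047 over all libraries, the only one of 13 alternatives in which Rgs2 passed, and the others reached up to 0.345. The Control libraries of batch 1 themselves fell into separate ranges by set, with 1951.1 to 2428.4 CPM in Control 1 to 3 and 1238.5 to 1315.5 CPM in Control 4 to 6, a difference that was not tested. Between batches, Rgs2 in Control libraries differed by -0.59 ± 0.23 on the log2 scale (SE, batch 2 minus batch 1; edgeR adjusted p = 0.102).

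Rgs10, a small RGS protein that acts on Gi-class alpha subunits and is abundant in cells of the macrophage lineage, lies on chromosome 7 (positions 128373621 to 128418758, minus strand) and its promoter window is printed above. In batch 1, the Control libraries held 24.8, 19.4, 17.3, 22.3, 23.1 and 26.3 CPM and the Tyrphostin libraries 10.6, 14.8 and 6.24 CPM. The groups did not overlap in this batch. In batch 2, the Control libraries held 16.3, 11.8, 10.4, 5.37 and 7.04 CPM and the Tyrphostin libraries 5.9, 4.58 and 8.39 CPM. Here the ranges overlapped, and 1 of 3 Tyrphostin libraries was below every Control library. Rgs10 fell by 0.88 ± 0.24 on the log2 scale (SE, 1.84-fold lower, 95% interval -1.37 to -0.39; edgeR adjusted p = 0.0169), from a Control mean of 16.7 CPM ± 7.24 (SD, n = 11) to a Tyrphostin mean of 8.42 CPM ± 3.76 (SD, n = 6). Within batch 1 it fell by 1.06 ± 0.28 (SE; edgeR adjusted p = 0.0277), and within batch 2 the difference was -0.67 ± 0.38 (SE, 95% interval -1.51 to 0.17; edgeR adjusted p = 0.601). The call over all libraries was lost without Tyrphostin 3 (edgeR adjusted p = 0.0549), without the batch term (0.0815), with Control libraries summed by set (0.0726) and with a replicate block (0.0512). The log2 differences in these last 3 fits were -0.97, -0.82 and -1, and without Tyrphostin 3 it was -0.72. The replicate block takes its treatment difference from batch 1 alone. The batch 1 call was lost without Tyrphostin 3 (edgeR adjusted p = 0.127) and without 4 other libraries, of which Tyrphostin 1 gave 0.0868.

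Rgs10 also differed between the batches of Control libraries. The means were 22.2 CPM ± 3.35 (SD, n = 6) in batch 1 and 10.2 CPM ± 4.26 (SD, n = 5) in batch 2, and every batch 2 Control library was below every batch 1 Control library. Rgs10 was 2.15-fold lower in batch 2 (log2 -1.11 ± 0.25 SE, 95% interval -1.64 to -0.57; edgeR adjusted p = 0.0095), and leaving out each Control library in turn gave -1.31 to -0.95. As for Rasd1, the test took the Control libraries as independent, and a fit with libraries summed by set was not run. In size the difference between Control batches was near the treatment difference in batch 1. In batch 2 the sets were again apart, at 11.8 to 16.3 CPM in Control 7 and 8, 10.4 CPM in Control 9 and 5.37 to 7.04 CPM in Control 10 and 11. The leukocyte markers went the other way between batches, with sums of 18.7 to 61.7 CPM in batch 1 and 54.2 to 462.2 CPM in batch 2 Control libraries. These ranges overlapped. Within the batch 2 Control libraries the sums had the same order of sets as Rgs10. They were 300.8 and 462.2 CPM in Control 7 and 8, 121.6 CPM in Control 9, and 58.8 and 54.2 CPM in Control 10 and 11. The Tyrphostin libraries of batch 2 had the opposite order. Their leukocyte sums were 56.2, 855 and 43.6 CPM in Tyrphostin 4, 5 and 6, where Rgs10 was 5.9, 4.58 and 8.39 CPM. The part of leukocyte RNA in the Rgs10 differences was not tested.

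Rgs12, a large RGS protein of several domains that acts on Gi-class alpha subunits and also binds Ras and Raf, lies on chromosome 5 (positions 34949445 to 35039644, plus strand). An antisense gene model overlaps 467 of its 8487 exonic bases. The sources used here do not say whether counting used strand, so reads of the pair cannot be told apart over those bases. In batch 1, the Control libraries held 1.62, 4.23, 4.18, 5.8, 4.8 and 5.47 CPM and the Tyrphostin libraries 9.04, 6.53 and 9.56 CPM. The groups did not overlap in this batch. In batch 2, the Control libraries held 6.3, 3.92, 2.17, 4.03 and 4.7 CPM and the Tyrphostin libraries 7.55, 9.16 and 4.29 CPM. Tyrphostin 6 lay inside the Control range, and over both batches 5 of 6 Tyrphostin libraries were above every Control library. The share of all genes with such a separation was not counted. Rgs12 rose by 0.83 ± 0.25 on the log2 scale (SE, 1.78-fold, 95% interval 0.32 to 1.35; edgeR adjusted p = 0.0326), from a Control mean of 4.29 CPM ± 1.41 (SD, n = 11) to a Tyrphostin mean of 7.69 CPM ± 2.02 (SD, n = 6). The difference was 0.97 ± 0.35 in batch 1 (SE; edgeR adjusted p = 0.107) and 0.7 ± 0.37 in batch 2 (SE; edgeR adjusted p = 0.548), and neither passed. The counts were 5 to 35 per Control library and 23 to 63 per Tyrphostin library, which limits the precision. The call over all libraries was lost without Control 2 (edgeR adjusted p = 0.0507) and without Tyrphostin 1 (0.0841), 3 (0.0742), 4 (0.0546) or 5 (0.0734). It was also lost with Control libraries summed by set (edgeR adjusted p = 0.0556) and with a replicate block of 12 libraries (0.0761), where the log2 differences were 0.88 and 1.34. That block takes its treatment difference from batch 1 alone. Control libraries of the batches were alike in mean, at 4.35 CPM ± 1.49 (SD, n = 6) and 4.22 CPM ± 1.49 (SD, n = 5), and Rgs12 did not pass the filter for that comparison.

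**Figure D2:**
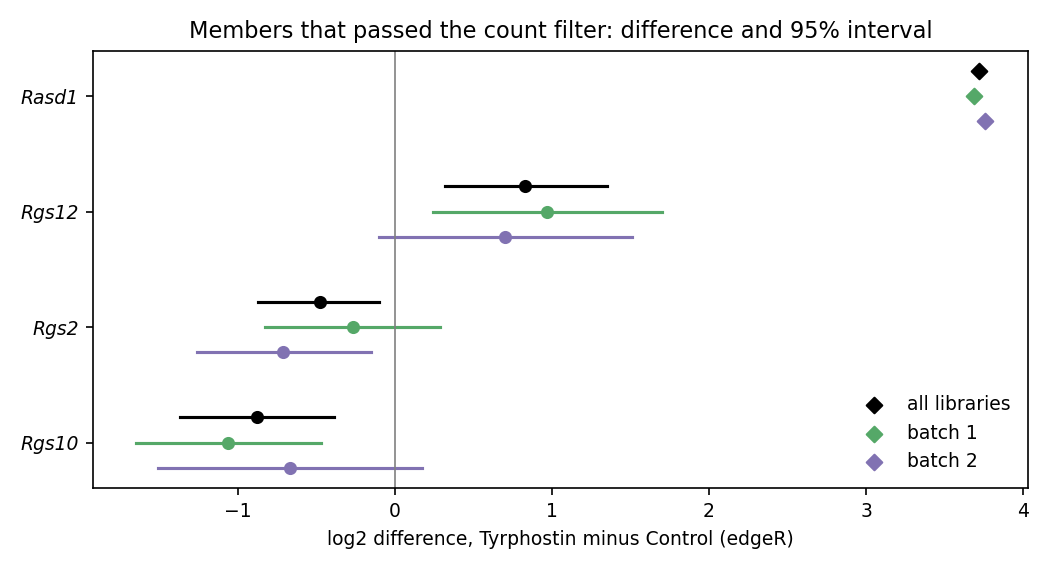
Log2 difference of Tyrphostin minus Control (x axis) for the 4 genes that passed the count filter (y axis), over all libraries and within each batch. Bars are 95% intervals, and Rasd1 has points only because it was chosen on this contrast. Rgs12 lies above 0 and Rgs10 and Rgs2 below 0 in each batch, with intervals that include 0 for Rgs2 in batch 1 and for Rgs10 and Rgs12 in batch 2.

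Rgs3 and Rgs16 were measured from few counts. Rgs3, an RGS protein that acts on Gi and Gq class subunits, lies on chromosome 4 (positions 62559847 to 62704001, plus strand) and had 2 to 18 counts per Control library and 5 to 22 per Tyrphostin library. Its level ran from 0.847 to 3.28 CPM with a median of 2 CPM in Control libraries, and the Tyrphostin libraries held 1.15, 1.4, 4.29, 0.686, 1.35 and 1.68 CPM. The highest and the lowest library were both Tyrphostin libraries. In a fit without the filter (21622 genes), Rgs3 had a log2 difference of -0.05 ± 0.43 (SE; edgeR adjusted p = 0.976), and a difference was not detectable at this depth.

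Rgs16, an RGS protein of the Gi and Gq classes that is induced in many cells by stimulation, lies on chromosome 1 (positions 153740349 to 153745468, plus strand). An antisense gene model overlaps 236 of the 2339 exonic bases of Rgs16, with the same limit as for Rgs12. It had 0 to 18 counts per Control library and 2 to 9 per Tyrphostin library. The Control libraries of batch 1 held 4.85, 3.11, 1.49, 2.03, 1.69 and 0 CPM and those of batch 2 held 3.94, 1.23, 0.869, 0.958 and 0.854 CPM. The Tyrphostin libraries held 1.29, 0.622 and 0.976 CPM in batch 1 and 0.549, 0.539 and 0.373 CPM in batch 2. All 3 Tyrphostin libraries of batch 2 were below every Control library of the batch in CPM, on 2 to 4 counts against 2 to 15. Control 9 and Tyrphostin 5 held 2 counts each, so their order rests on the scaling of the libraries. In batch 1 the Control library at 0, Control 6, was the shallowest of all, where 3 counts are 1.64 CPM. In the fit without the filter Rgs16 had a log2 difference of -1.34 ± 0.52 (SE; edgeR adjusted p = 0.154) and did not pass.

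Levels were compared between genes per kilobase of exon, on the scale of mean CPM per kb. Rgs2 stood at 396.7 in Control and 288.4 in Tyrphostin libraries, and no other RGS gene reached 10. Rgs10 followed at 9.78 and 4.92, then Rgs19 at 5.16 and 6.69, Rgs4 at 4.97 and 2.71 and Rgs11 at 1.35 and 1.88. The remaining members were lower, with Rgs16 at 0.818 and 0.31, Rgs12 at 0.506 and 0.906 and Rgs3 at 0.17 and 0.163. Rasd1 on the same scale averaged 11.6 ± 9.1 over the Control libraries (SD, n = 11) and 165.5 ± 162.9 over the Tyrphostin libraries (SD, n = 6). Its lowest Tyrphostin library (7.75) was inside the Control range of 2.68 to 29.5, and its highest (476.3) exceeded the highest Tyrphostin value of Rgs2 (447.7). The range of Rgs2 was 244.8 to 669.5 in Control and 163.1 to 447.7 in Tyrphostin libraries, so the Control ranges of Rgs2 and Rgs10 (3.14 to 15.4) did not overlap.

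**Figure D3:**
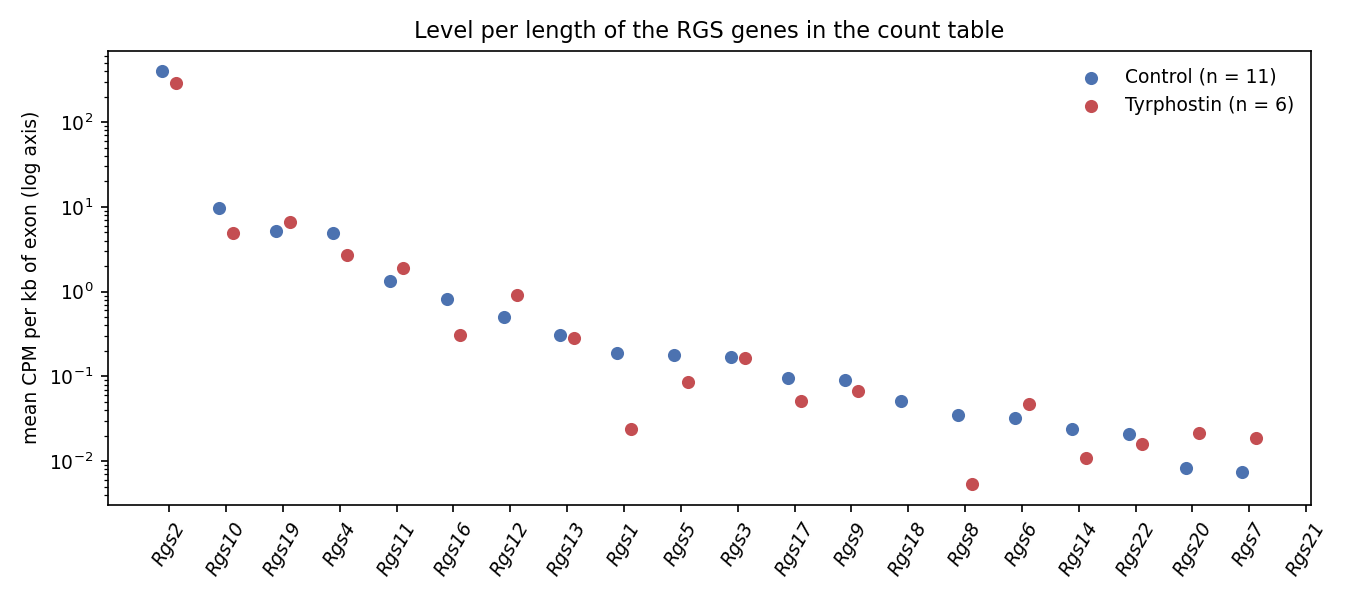
Mean CPM per kb of exon (y axis, log axis) for each RGS gene in the count table (x axis, in order of the Control mean), in Control and Tyrphostin libraries. Rgs2 stands at 396.7 in Control libraries, above every other gene drawn, and genes with a mean of 0 (Rgs18 in Tyrphostin libraries, Rgs21 in both groups) have no point.

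The other RGS genes and R7 binding proteins, 18 in the table, gave 4 that were tested (Rgs4, Rgs11, Rgs19 and Rgs7bp) and 0 calls in edgeR, beside 10.6% of all genes tested. Rgs4, an inhibitor of Gi and Gq signals, had a Control mean of 15.4 CPM ± 13 (SD, n = 11) and a Tyrphostin mean of 8.39 CPM ± 5.65 (SD, n = 6), a log2 difference of -0.89 ± 0.5 (SE; edgeR adjusted p = 0.307). Its difference was as large as that of Rgs10, with an SE of 0.5 against 0.24. Rgs19, also called GAIP, had 11.5 CPM ± 5.21 (SD, n = 11) and 14.9 CPM ± 5.23 (SD, n = 6), a difference of 0.39 ± 0.26 (SE; edgeR adjusted p = 0.397). The median log2 difference of the 4 was 0.06, against 0 over all genes tested.

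The G proteins that RGS proteins and Rasd1 act on were examined next. None of the 9 tested of 13 alpha subunit genes passed in edgeR, beside 10.6% of all genes tested, and the median log2 difference of the 9 was 0.23. With total counts in place of TMM 1 passed, Gnai3 (log2 0.52, edgeR adjusted p = 0.0349). Without Control 6 the count was also 1, but that gene was not Gnai3. The edgeR adjusted p of Gnai3 was at least 0.131 whichever library was left out. Gnai3, an inhibitory alpha subunit and the most abundant one, had 359.4 CPM ± 76.8 (SD, n = 11) and 472.8 CPM ± 94.8 (SD, n = 6), a difference of 0.38 ± 0.17 (SE; edgeR adjusted p = 0.183). Gnas, which encodes the stimulatory subunit, had a difference of 0.03 ± 0.45 (SE; edgeR adjusted p = 0.98) that combined 0.86 in batch 1 and -1.04 in batch 2. The difference between these batch values was -1.9 ± 0.75 (SE; edgeR p = 0.0221, adjusted p = 1).

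Among the beta and gamma subunits, 7 of 15 were tested, with 1 call in each direction and a median of -0.02. Of all genes tested, 4.35% were called higher and 6.25% lower. Gnb4, a beta subunit, fell from a Control mean of 70.3 CPM ± 21.2 (SD, n = 11) to a Tyrphostin mean of 35.9 CPM ± 7.47 (SD, n = 6), by 0.91 ± 0.17 on the log2 scale (SE; edgeR adjusted p = 0.00096). Gnb5, the atypical beta subunit that pairs with RGS proteins of the R7 class (Rgs6, Rgs7, Rgs9 and Rgs11), rose from a Control mean of 17.7 CPM ± 4.87 (SD, n = 11) to a Tyrphostin mean of 31.4 CPM ± 5.01 (SD, n = 6), by 0.83 ± 0.18 (SE; edgeR adjusted p = 0.00314). Both had the same sign in each batch, at -1.13 and -0.67 for Gnb4 and 0.96 and 0.7 for Gnb5, and both passed without any single library. Gng12, the gamma subunit gene with the highest mean CPM before any correction for length, did not pass (-0.41 ± 0.22, SE; edgeR adjusted p = 0.258).

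Of 12 RGK and other Ras-like small GTPases, a list that holds relatives of Rasd1, 6 were tested, 2 rose and 1 fell, with a median of 0.44. Of all genes tested 4.35% rose and 6.25% fell. Rasl10a rose from a Control mean of 11.2 CPM ± 6.14 (SD, n = 11) to a Tyrphostin mean of 27.7 CPM ± 11 (SD, n = 6), 2.71-fold on the fitted scale (log2 1.44 ± 0.27 SE; edgeR adjusted p = 0.00096). Its difference was 2.06 in batch 1 and 0.8 in batch 2. Rerg, an estrogen-regulated growth inhibitor, rose by 0.91 ± 0.21 (SE; edgeR adjusted p = 0.00529), with a Control mean of 26.4 CPM ± 17.9 (SD, n = 11) and a Tyrphostin mean of 47.4 CPM ± 16.3 (SD, n = 6). Without the batch term Rerg did not pass (edgeR adjusted p = 0.17). Gem, an RGK GTPase that inhibits calcium channels, fell from a Control mean of 327.8 CPM ± 135.2 (SD, n = 11) to a Tyrphostin mean of 170.3 CPM ± 42.6 (SD, n = 6), by 0.91 ± 0.24 (SE; edgeR adjusted p = 0.014).

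The receptors upstream gave 12 tested of 24, of which 3 rose and 1 fell (median 0.05), beside 4.35% and 6.25% of all genes tested. Lhcgr, the luteinizing hormone receptor on which hCG acts, rose from a Control mean of 465.3 CPM ± 294.8 (SD, n = 11) to a Tyrphostin mean of 929.6 CPM ± 262.1 (SD, n = 6), by 1.02 ± 0.24 (SE; edgeR adjusted p = 0.00765). Oxtr, the oxytocin receptor, rose by 0.91 ± 0.26 (SE; edgeR adjusted p = 0.0262) and Fshr, the FSH receptor, by 0.83 ± 0.25 (SE; edgeR adjusted p = 0.0344). The Oxtr difference was 1.45 in batch 1 and 0.36 in batch 2. These batch values differed by -1.09 ± 0.49 (SE), which did not pass after adjustment. Adcyap1r1, the receptor of the peptide PACAP, fell from a Control mean of 4.32 CPM ± 2.31 (SD, n = 11) to a Tyrphostin mean of 0.775 CPM ± 0.556 (SD, n = 6), by 2.48 ± 0.49 (SE; edgeR adjusted p = 0.00155). The Tyrphostin libraries held 0 to 1.62 CPM, around the floor of 3 counts (0.412 to 0.809 CPM there), and the Control libraries 1.2 to 8.45 CPM. Adcyap1r1 thus passed the count filter through the Control group alone, and the size of its fold rests on few counts. The calls of Lhcgr (edgeR adjusted p = 0.0596), Oxtr (0.188) and Fshr (0.0645) were lost without the batch term, and again with Control libraries summed by set (edgeR adjusted p = 0.0512, 0.0685 and 0.0824), where the differences were 0.92, 0.91 and 0.86. Fshr was lost with the replicate block (edgeR adjusted p = 0.0971), which takes its treatment difference from batch 1 alone. Oxtr was also lost without Tyrphostin 1 (edgeR adjusted p = 0.056), 2 (0.0715) or 3 (0.0611), and Fshr without any of 6 libraries, with up to 0.187 without Tyrphostin 1. Fshr is also among the granulosa markers and Lhcgr among the ovulatory ones.

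The 5 tested of 8 non-receptor activators and chaperones (median 0.29), the 3 of 8 receptor kinases and arrestins (median -0.1), the 5 of 13 adenylyl cyclases and phospholipase C beta genes (median -0.13) and the 3 of 5 partners of Rasd1 (median 0.09) held 0 calls in edgeR. In these lists the most abundant genes were Ric8a, a chaperone of alpha subunits (-0.13 ± 0.14, SE; edgeR adjusted p = 0.641), Arrdc3, an arrestin-like protein (0.4 ± 0.2; 0.238), Plcb3, a phospholipase activated by Gq (-0.08 ± 0.31; 0.916), and Slc11a2, the iron transporter linked to Rasd1 (0.09 ± 0.17; 0.805). Across all 9 lists, 54 of 116 genes were tested, and the median was 0.09. Among them 6 rose and 3 fell, beside 4.35% higher and 6.25% lower of all genes tested. The 3 that fell include Adcyap1r1, which was near the floor of 3 counts in Tyrphostin libraries.

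**Figure D4:**
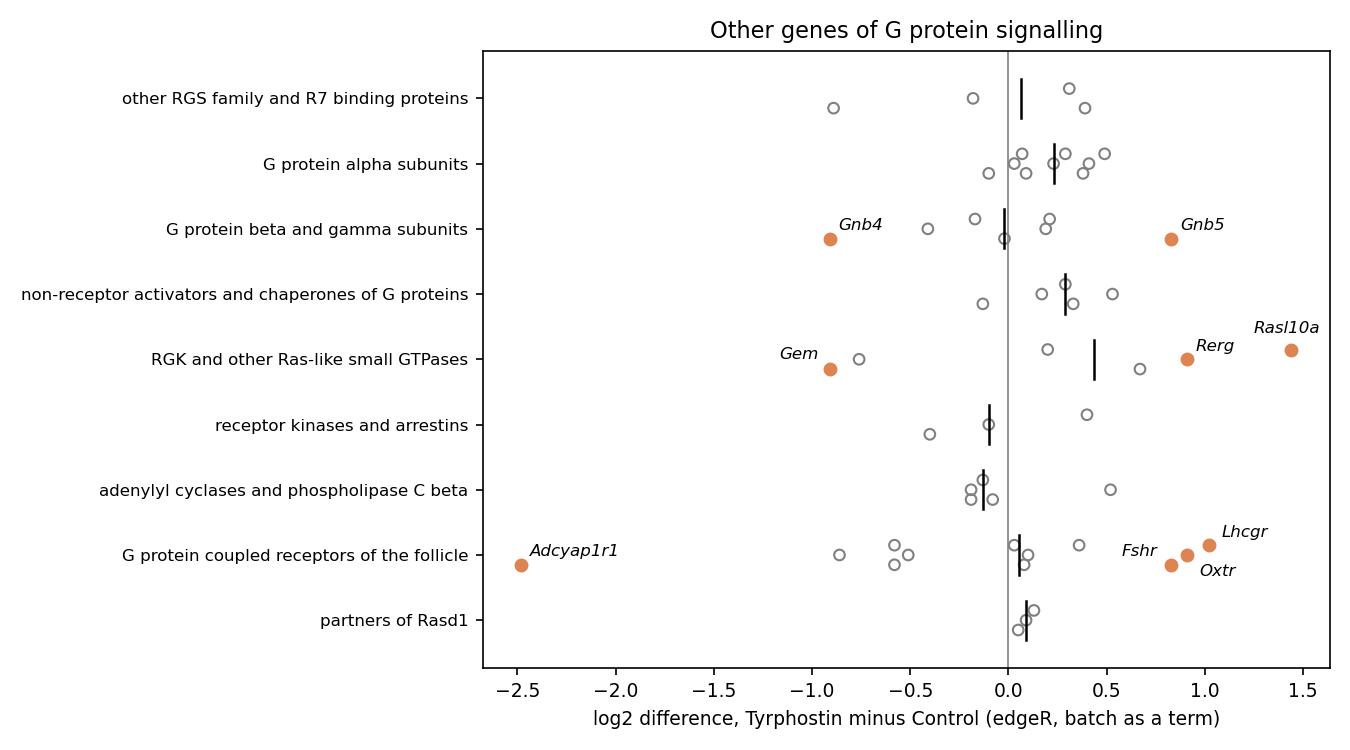
Log2 difference of Tyrphostin minus Control (x axis) for the tested genes of 9 lists around G protein signalling (y axis). Filled points passed an adjusted p of 0.05 in edgeR and are named, open points did not pass, and vertical bars are list medians. Adcyap1r1 at -2.48 is the lowest point and Rasl10a at 1.44 the highest. Adcyap1r1 passed the count filter through the Control group alone, and the size of its difference rests on few counts.

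Levels of the tested members were also compared across the 17 libraries by Pearson's r of log2 CPM, as a description. The libraries share batch, treatment and depth, so no p is given. Rgs10 and Rasd1 had r = -0.61 over all libraries and 0.59 after removal of the means of the 4 treatment and batch groups, so the relation changed sign once those means were taken out. Rgs2 and Rgs10 had 0.69 and 0.12, and Rgs2 and Rasd1 had -0.64 and 0.27. Rgs12 had r between -0.38 and 0.44 with the other 3, and between -0.3 and 0.01 after the removal. The genes whose levels were most like those of Rasd1 over all libraries were Alas1, the first enzyme of heme synthesis, Hao2, a peroxisomal oxidase, and Rasgef1b, an exchange factor of small GTPases, each with r = 0.92. Their own log2 differences were 1.63, 2.08 and 2.25. After removal of the group means the most like genes were others, Mvb12a (0.82), Atp5c1 (0.8) and Prdx4 (0.78). For Rgs10 they were Pdlim1 and Eif4a-ps4 (both 0.91) and Pfn1 (0.9), and after the removal Cdk2 (0.92), Psmb6 (0.91) and Armcx2 (0.9). For Rgs12 they were Anln, Add3 and Zbtb40 (each 0.8), and after the removal Ppfibp1 (0.89), Ocrl (0.86) and Zfp408 (0.85).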

How the data were processed

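Per the labels' protocols, RNA from lysates was purified with RNA-SPRI beads for Smart-Seq2, which amplifies full-length cDNA and adds no molecular identifier. The table deposited by the authors gives whole counts for 25198 gene symbols, 3576 of them without any count. The submitters' processing notes name STAR, HTSeq and GRCm38. The annotation and strandedness are not given in the sources used here. A floor of 3 counts reflects counting error alone, because amplified copies do not stand for separate molecules.

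Differences were tested on the counts with edgeR 4.0.16 in R 4.3.3: filterByExpr, TMM scaling, estimateDisp, robust glmQLFit and the quasi-likelihood F test, adjusted by Benjamini-Hochberg over all genes tested at a threshold of 0.05. The treatment effect had batch as a term over 17 libraries; further fits took each batch alone, the interaction of treatment with batch, and batch 2 against batch 1 in Control libraries. A gene's SE is its log2 difference divided by the square root of F. Alternatives were other scalings, DESeq2 1.42.0, limma-voom (limma 3.58.1), other filters, thresholds and covariates, Control sets summed, a replicate block and omission of each library. The code was tested on simulated counts.

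The members and lists were chosen with earlier results of these data known. Named genes are the members, called list genes, up to 2 of the most abundant per list, and the 3 most similar in level to each member with a difference (average log2 CPM of at least 3, prior count 2). Gene positions and exon lengths came from GENCODE M21 and promoters from RefSeq, which matched 5 of the 6 genes.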

Additional observations from a re-analysis of the deposited data

Results flagged for a closer look

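Of 18 groups of library values examined for a library far from the rest, 3 held one. A rate of 5% of groups would give about 0.9, but that rate assumes normally distributed values, and CPM were used without a log. Tyrphostin libraries of both batches were taken as a single group, and their Rasd1 level was higher in batch 2. The Rasd1 level of Tyrphostin 6 was 767.3 CPM, and the other 5 Tyrphostin libraries held 12.5 to 292.1 CPM. Without it the log2 difference of Rasd1 over all libraries was 3.41. The Rgs3 level of Tyrphostin 3 was 4.29 CPM, against 0.686 to 1.68 CPM in the other Tyrphostin libraries, and without it the log2 difference of Rgs3, in the fit without a filter, was -0.49. The Rgs16 level of Control 7 was 3.94 CPM, and its batch 2 companions held 0.854 to 1.23 CPM. The log2 difference of Rgs16 in the same fit was -1.11 without Control 7.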

How the results depend on the processing

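The higher level of Rasd1 in Tyrphostin libraries kept its direction in all 13 alternatives (log2 3.16 to 3.83) and without each library (3.41 to 3.97). Rgs10 passed in 9 of 13 alternatives (adjusted p 0.00378 to 0.0815) and Rgs12 in 10 of 13 (0.0112 to 0.0761), counting a threshold of 0.01 as one at which both were lost. The number of genes that passed over all libraries, 1018, was 478 at an adjusted p under 0.01, 619 without the batch term and 624 with the replicate block (numbers 1 to 6 of both groups, batch as a term), and 708 to 1314 without each library. In that block, numbers 4 to 6 join batch 1 Control with batch 2 Tyrphostin libraries. Its treatment difference therefore rests on numbers 1 to 3, all of batch 1, and does not check the result over all libraries. With total counts in place of TMM the median of all genes moved to 0.15 and the split of calls from 41.1% to 64.4% higher (715 higher, 396 lower). In batch 1, 634 genes became 282 at 0.01, and 394 to 687 without each library. In batch 2, 61 became 20 at 0.01, 303 with DESeq2, 222 without the filter, and 11 (without Tyrphostin 6) to 221 (without Control 7) without each library. The interaction gave 0 genes, 79 without the filter, and 0 without each library. The Control batch difference, 937 genes, gave 343 at 0.01, 1473 with DESeq2, and 637 to 1025 without each library. With total counts its split moved to 75.7% higher (840 higher, 270 lower), and that of batch 1 to 63.5%.

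Signs that changed were of small, uncalled differences, and the cause was not tested. With total counts Ric8a was 0.02, Plcb3 0.04 and Rgs3 0.05. Plcb3 was also 0.03 with limma-voom, 0.02 with Control sets summed and 0.11 with the replicate block, Gnas was -0.37 with Control sets summed, and Slc11a2 was -0.04 with the replicate block. Without each library Gnas ran from -0.22 to 0.3, Plcb3 from -0.2 to 0.04 and Rgs3 from -0.49 to 0.13. No label says that the numbers shared by both groups pair libraries. Deviations from the group means correlated at 0.31 to 0.47 for numbers 1 to 3, which share a batch. For numbers 4 to 6, which do not, the range was -0.13 to 0.01. Around the means of group and batch the deviations correlated at 0.32 for number 1 and at 0.03 to 0.11 for the others. Libraries of unlike number were not compared, so these values cannot decide whether libraries were paired. A match of Control set numbers with Tyrphostin numbers was not examined. Under the block, whose treatment difference rests on batch 1 alone, Rgs4 passed (log2 -1.43, edgeR adjusted p = 0.0421). With Control sets summed it did not (-0.71, edgeR adjusted p = 0.554). Depth limits Rgs3 and Rgs16.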
